A study of Mus musculus with 4 samples.

Results

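Plasma cells are the antibody-secreting end stage of the B lineage. The repressor Blimp-1 (Prdm1) and the factor IRF4 install their programme, and XBP1, made active by splicing of its mRNA by the endoplasmic reticulum (ER) sensor IRE1, enlarges the ER for secretion. Blimp-1 silences B cell factors such as PAX5, and PAX5 and BACH2 in turn hold the programme back. In marrow such cells are rare but hold very large amounts of immunoglobulin mRNA. The members described here are 10 genes, out of 55399 in the count table: the regulators Xbp1, Prdm1 and Irf4, the surface genes Sdc1 and Tnfrsf17, and the ER genes Mzb1, Derl3, Creld2, Fkbp11 and Sdf2l1. They were taken as rows of the table by gene symbol, leaving out immunoglobulin genes. All 10 were found, and all 10 passed the filter on low counts. The set was chosen with the counts of these same libraries in view, so the genotype difference of the members is given as a description, and the counts of members past a threshold support nothing.

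Bulk RNA-seq was run on mouse bone marrow cells labelled Lsk, which commonly stands for marrow cells without lineage markers that carry Sca-1 and Kit, the stem cells and multipotent progenitors. There were 2 libraries of genotype Ppm1bfl/fl, whose Ppm1b alleles are flanked by loxP sites, and 2 of genotype Ppm1bCKO, a conditional knockout of that phosphatase gene. The Cre line, the age of the mice, and whether replicates came from separate mice are not given in the sources used here, so the p-values speak for these 4 libraries, and the spread of the Ppm1bfl/fl pair may be technical. The series title ties Ppm1b to stem cell self-renewal and Wnt signalling, and the libraries allow the genotypes to be compared transcript by transcript.

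Each library held 22393973 to 30045382 counts, so a gene with no count could still have up to 3, which equals 0.0995 to 0.132 CPM. CPM are counts scaled to the library total of tested genes after TMM normalisation, which is explained below. Ppm1b itself was not lower in the libraries labelled Ppm1bCKO (84.3 and 121 CPM, against 80.8 and 82.5), and a gene-level count need not fall when a few exons are deleted, so every direction below rests on the labels. Ppm1bCKO replicate 2 stood apart from the other libraries in overall expression and held 2 counts of 4 Y-linked genes, against 5870 to 6396 in the others. The Ppm1bCKO libraries were therefore not repeats of 1 RNA sample. By these genes Ppm1bCKO replicate 2 looked female and the other libraries held male cells, so sex was not balanced between the genotypes. The part of sex in the values below was not tested. Kit lay between 121 and 228 CPM and Ly6a, which encodes Sca-1, between 17.7 and 22.2 CPM, while Igha and the eosinophil granule gene Prg2 reached at least 1628 and 1484 CPM in every library. The libraries therefore held transcripts of antibody-making cells and of the eosinophil lineage beside those of progenitors.

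Promoter sequences are shown first, because Derl3 and Creld2 carry the same ER stress element and only Derl3 was lower in both Ppm1bCKO libraries. RefSeq windows from 250 bases before to 50 bases after each start (GRCm38.p6, the same assembly as mm10) were found for 9 of the 10 members, with 10 windows in all. The entry not found was Mzb1. Both strands were searched for the ER stress element, CCAAT and CCACG parted by any 9 bases, which ATF6 and XBP1 are known to use. Only Derl3 and Creld2 held it among the members, where 0.119% of all 32851 windows did. Of the ER chaperone genes Hspa5 and Hsp90b1, both held it as well. In the lines below the fixed letters of the element are in capitals. In Derl3 and Creld2 it lies on the opposite strand and so reads CGTGG, then ATTGG.
Derl3, chr10:75893202-75893300, plus strand: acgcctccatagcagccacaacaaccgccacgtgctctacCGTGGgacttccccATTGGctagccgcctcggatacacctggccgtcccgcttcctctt
Creld2, chr15:88819480-88819578, plus strand: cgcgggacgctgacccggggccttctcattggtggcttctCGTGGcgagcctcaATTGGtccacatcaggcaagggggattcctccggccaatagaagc
Hspa5, chr2:34771985-34772083, plus strand: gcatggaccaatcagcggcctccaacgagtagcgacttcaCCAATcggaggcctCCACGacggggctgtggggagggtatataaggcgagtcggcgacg

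The element starts 156 bases before the start site in Derl3, 126 bases before it in Creld2 and 65 bases before it in Hspa5. The XBP1 core, TGACG directly followed by TGG (0.676% of all windows), and a related element, ATTGG and CCACG parted by 1 base (0.0365%), whose CCACG is shared with the first element, were not found in these letters in any member's window. A pair of GAAA sites parted by 2 bases, of the kind that interferon regulatory factors bind, was found in 3.44% of all windows and, among the members, in that of Tnfrsf17 alone. There it starts 101 bases before the start site, on the opposite strand, and its fixed letters are in capitals below. Such matches describe the letters only and say nothing of binding.
Tnfrsf17, chr16:11313668-11313757, plus strand: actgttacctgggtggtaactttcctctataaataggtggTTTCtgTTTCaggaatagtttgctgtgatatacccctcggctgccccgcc

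The 10 genes did not move together. Prdm1, Tnfrsf17 and Derl3 stood at 1.92 to 2.51 times lower levels in Ppm1bCKO, Irf4 stood 1.53 times higher, and Xbp1 and the general ER stress genes Creld2, Fkbp11 and Sdf2l1 had overlapping groups. Levels are CPM after TMM normalisation, which scales each library to a common reference, and log2 fold changes are Ppm1bCKO over Ppm1bfl/fl with their standard errors. In all, 6 members had a negative and 4 a positive log2 fold change, with a median of -0.25, against a median of -0.0032 over 16393 tested genes. The members' median was -0.03 without Ppm1bfl/fl replicate 1, -0.39 without Ppm1bfl/fl replicate 2, -0.05 without Ppm1bCKO replicate 1 and -0.49 without Ppm1bCKO replicate 2. Both Ppm1bCKO libraries lay below both Ppm1bfl/fl libraries for 4 members, as they did for 20.6% of all tested genes, and above them for 1 member, as for 20.6% of all tested genes. In edgeR's quasi-likelihood test 0 of 10 members passed an adjusted p of 0.05 (0.372% of all tested genes did) and 4 had an unadjusted p under that value (6.44% of all). DESeq2 called 1 of 10, Derl3 (1.24% of all), and limma-voom 0 (0.305% of all). As the members were chosen on this contrast, nothing is read from these counts.

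**Figure D1:**
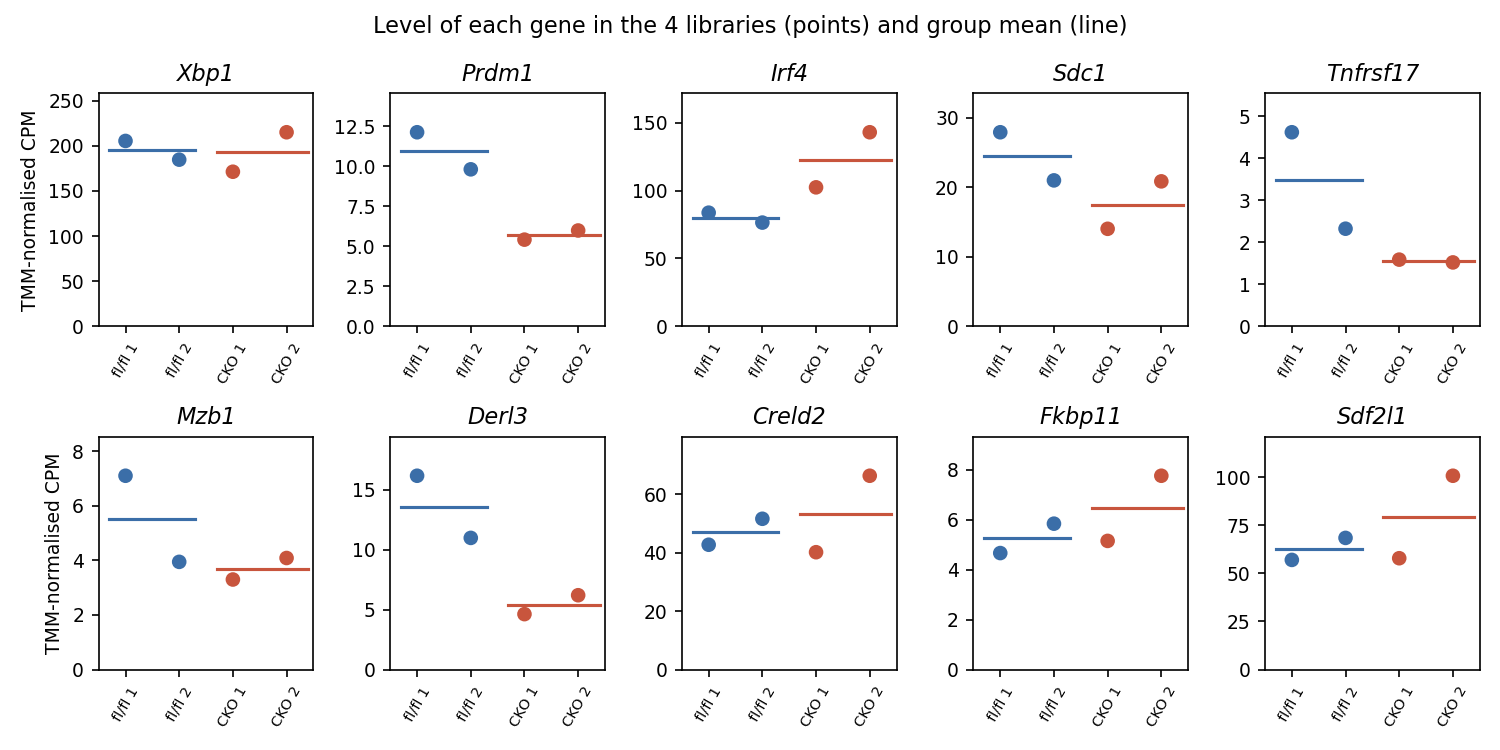
TMM-normalised CPM (y axis, from 0, a separate scale per gene) of each of the 10 genes in Ppm1bfl/fl replicates 1 and 2 (blue) and Ppm1bCKO replicates 1 and 2 (red), with lines at group means. Prdm1, Derl3 and Tnfrsf17 lie lower in both Ppm1bCKO libraries and Irf4 higher, while Xbp1, Creld2, Fkbp11 and Sdf2l1 overlap.

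Among the regulators, the 3 genes went 3 ways. Prdm1 (chromosome 10, bases 44437177 to 44528501 of mm10) was found at 12.1 and 9.81 CPM in replicates 1 and 2 of Ppm1bfl/fl, and at 5.41 and 5.98 CPM in Ppm1bCKO replicates 1 and 2. Both Ppm1bCKO libraries were lower and the groups did not overlap, with a mean of 11.0 ± 1.6 against 5.70 ± 0.41 CPM (SD, n = 2) and a log2 fold change of -0.94 ± 0.24. Irf4 (chromosome 13, 30749226 to 30766976), which also acts in pre-B cells, dendritic cells and macrophages, measured 83.6 and 76.3 CPM in Ppm1bfl/fl and 102 and 143 CPM in Ppm1bCKO. It was higher in both Ppm1bCKO libraries, most so in replicate 2, and its log2 fold change was 0.62 ± 0.20, or 0.36 without that library. The number of Irf4 counts per Prdm1 count was 6.89 and 7.78 in Ppm1bfl/fl and 18.9 and 23.9 in Ppm1bCKO. As the 2 genes had opposite signs, this ratio must differ more than either gene alone. In bulk RNA their counts can come from different cells.

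Xbp1 (chromosome 11, 5520659 to 5525893), the regulator of secretory capacity, measured 206 and 185 CPM in Ppm1bfl/fl, and 171 and 215 CPM in Ppm1bCKO. The Ppm1bfl/fl libraries lay inside the range of the Ppm1bCKO pair, and the log2 fold change was -0.01 ± 0.18. Its active form differs from the inactive one by a short spliced-out stretch, which a count per gene cannot show. Xbp1 is expressed in many secretory and haematopoietic cells, including eosinophils, and its counts were 12.7 and 16.8 times those of Derl3 in Ppm1bfl/fl and 37.1 and 34.8 times those in Ppm1bCKO.

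The surface genes were both lower in Ppm1bCKO, by unequal amounts. Tnfrsf17 (chromosome 16, 11313812 to 11320074) encodes BCMA, a receptor for survival signals that is largely restricted to plasma cells. It had 123 and 70 counts in Ppm1bfl/fl and 36 and 36 counts in Ppm1bCKO, the lowest counts of any member, or 4.62 and 2.32 CPM against 1.58 and 1.52 CPM. The Ppm1bCKO libraries were close to each other, whereas the Ppm1bfl/fl pair was far apart. Its log2 fold change of -1.16 ± 0.41 was -0.58 without Ppm1bfl/fl replicate 1. Sdc1 (chromosome 12, 8771323 to 8793715) encodes syndecan-1, or CD138, the proteoglycan by which plasma cells are usually sorted. It measured 27.9 and 21.0 CPM in Ppm1bfl/fl and 14.0 and 20.8 CPM in Ppm1bCKO. The groups were separated only by the small gap between replicates 2 of each genotype, and the log2 fold change was -0.49 ± 0.25.

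The ER genes split, with lower means of Derl3 and Mzb1 in Ppm1bCKO and higher means of the other 3. Derl3 (chromosome 10, 75893413 to 75895941), a derlin of the pathway that removes misfolded proteins from the ER and a known XBP1 target, measured 16.2 and 11.0 CPM in Ppm1bfl/fl and 4.62 and 6.19 CPM in Ppm1bCKO. Both Ppm1bCKO libraries were lower, the mean went from 13.6 ± 3.7 to 5.41 ± 1.11 CPM (SD, n = 2), and its log2 fold change of -1.32 ± 0.28 was the most negative of the 10. Mzb1 (chromosome 18), an ER co-chaperone of antibody assembly that marginal zone B cells and plasmacytoid dendritic cells also express, measured 7.10 and 3.95 CPM in Ppm1bfl/fl and 3.30 and 4.09 CPM in Ppm1bCKO. Ppm1bfl/fl replicate 1 was the highest library and the other 3 lay between 3.30 and 4.09 CPM, and the log2 fold change of -0.58 ± 0.35 was -0.10 without it.

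The remaining ER genes are induced by ER stress in many cell types or serve folding more widely. Creld2 (chromosome 15, 88819646 to 88826683), a disulphide isomerase, measured 42.8 and 51.7 CPM in Ppm1bfl/fl and 40.2 and 66.4 CPM in Ppm1bCKO. Sdf2l1 (chromosome 16, 17130138 to 17132383), which works with BiP and its DnaJ partners, stood at 57.0 and 68.4 CPM against 57.8 and 101 CPM. Fkbp11 (chromosome 15, 98724366 to 98728198), a prolyl isomerase, stood at 4.66 and 5.84 CPM against 5.15 and 7.75 CPM. In all 3 genes Ppm1bCKO replicate 2 was the highest library and replicate 1 lay at or near the Ppm1bfl/fl levels. Their log2 fold changes were 0.18 ± 0.25, 0.34 ± 0.26 and 0.30 ± 0.30, and without Ppm1bCKO replicate 2 they were -0.23, -0.12 and -0.03. Derl3 and Creld2, whose promoters share the element printed above, were thus lower and overlapping, respectively.

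**Figure D2:**
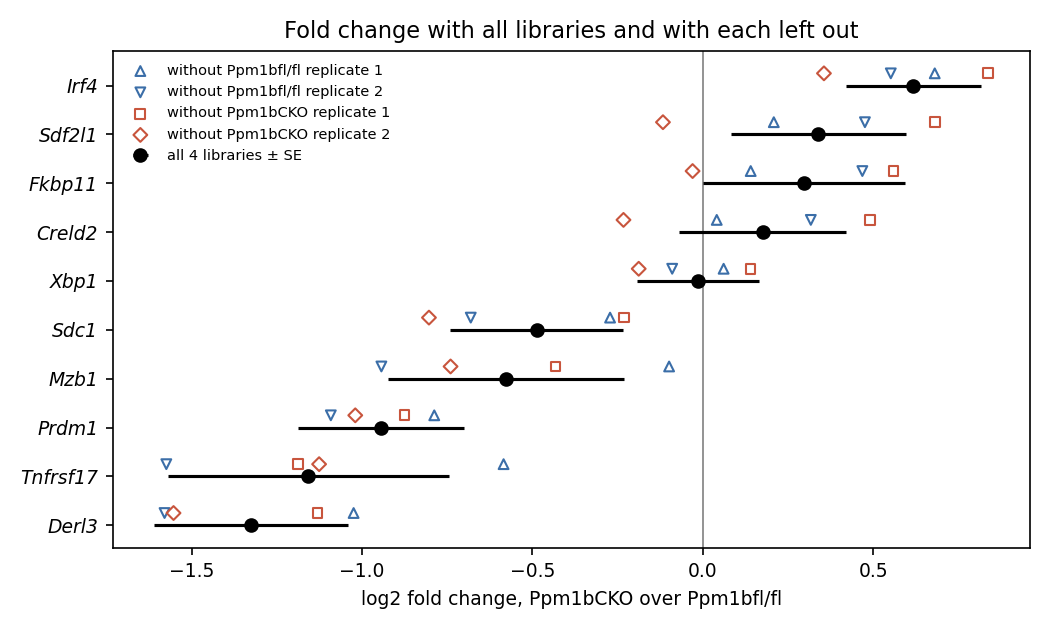
Log2 fold change, Ppm1bCKO over Ppm1bfl/fl (x axis), of each of the 10 genes with all 4 libraries (black, ± SE) and with each library left out (open symbols). Derl3, Tnfrsf17, Prdm1, Mzb1 and Sdc1 stay below 0 and Irf4 above 0 in each fit, while Creld2, Fkbp11, Sdf2l1 and Xbp1 lie on both sides. Where the groups do not overlap, as for all of the former but Mzb1, leaving out a library could hardly change the sign.

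Replicates of a genotype also differed. In Ppm1bfl/fl, replicate 1 was above replicate 2 for 7 of 10 members, the exceptions being Creld2, Fkbp11 and Sdf2l1 (50.3% of all tested genes were above). In Ppm1bCKO, replicate 2 was above replicate 1 for 9 of 10, the exception being Tnfrsf17 (50.3% of all tested genes were above). The highest library was Ppm1bfl/fl replicate 1 for 5 members and Ppm1bCKO replicate 2 for the other 5.

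Per kilobase of exon, the scale on which genes can be compared with each other, the mean level in Ppm1bfl/fl was highest for Xbp1 (60.1 CPM per kb) and Sdf2l1 (56.6), whose libraries overlapped. Creld2 (34.6) and Irf4 (16.3) followed, each apart from its neighbours. Derl3 (6.81) and Sdc1 (6.41), Mzb1 (4.55) and Tnfrsf17 (4.26), and Prdm1 (1.97) and Fkbp11 (1.94) formed pairs within which the libraries overlapped, as did those of Sdc1 and Mzb1. In Ppm1bCKO the order on the same scale was Sdf2l1 (71.5), Xbp1 (59.5), Creld2 (39.0), Irf4 (25.0), Sdc1 (4.57), Mzb1 (3.04), Derl3 (2.71), Fkbp11 (2.38), Tnfrsf17 (1.90) and Prdm1 (1.02). There the libraries of Sdf2l1 and Xbp1 overlapped, as did the neighbours from Mzb1 to Tnfrsf17, and the other neighbours did not. Derl3 passed from the fifth place to the seventh, behind Sdc1, whose Ppm1bCKO libraries did not overlap its own, and Mzb1, whose libraries did. Xbp1, Sdf2l1, Creld2 and Irf4 held the first 4 places in both genotypes.

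Of the immunoglobulin transcripts, the main product of plasma cells, Igha differed more than any member. The immunoglobulin share of counts was 3.37% and 2.14% in Ppm1bfl/fl and 0.823% and 0.975% in Ppm1bCKO. Igha, the IgA constant gene, fell by 2.24 on the log2 scale (SE 0.30, edgeR adjusted p = 0.0225), and Jchain, whose product joins IgA units, lay lower, at -1.82 ± 0.30 without passing (edgeR adjusted p = 0.0638). DESeq2 and limma-voom called Igha as well (adjusted p = 1.23e-16 and 0.0135). Its log2 fold change was -1.84 without Ppm1bfl/fl replicate 1 and -2.56 without replicate 2. It was -2.15 without Ppm1bCKO replicate 1 and -2.34 without replicate 2, and in edgeR Igha did not pass in either of these last fits. The IgG2b gene Ighg2b lay lower without passing (-1.50 ± 0.27, edgeR adjusted p = 0.0901), and the IgM gene Ighm had the opposite sign (0.53 ± 0.32, edgeR adjusted p = 0.717). The number of Igha counts per Derl3 count was 637 and 567 in Ppm1bfl/fl and 352 and 302 in Ppm1bCKO. Per Sdc1 count it was 369 and 297 against 116 and 89.7, and per Prdm1 count 848 and 634 against 301 and 312. In bulk RNA fewer cells of a type and less RNA per cell cannot be told apart.

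Other plasma cell genes, a list of 18 without the members, had mostly negative log2 fold changes. Of these, 14 had a negative and 4 a positive log2 fold change, with a median of -0.14, or 0.0059 without Ppm1bfl/fl replicate 1. In edgeR 0 of 18 passed over all genes and 7 had an unadjusted p under 0.05 (6.44% of all tested genes did). DESeq2 and limma-voom called 0. The genes with the smallest p, which did not pass, were Ccr10, Bhlha15 and Txndc5. Ccr10, the chemokine receptor of IgA plasma cells, stood at 2.87 ± 0.78 and 0.793 ± 0.189 CPM (SD, n = 2; log2 fold change -1.84 ± 0.41, edgeR adjusted p = 0.231). Bhlha15, which encodes the secretory cell factor MIST1, stood at 5.54 ± 0.51 and 2.96 ± 0.46 CPM (SD, n = 2; edgeR adjusted p = 0.617). Txndc5, an ER oxidoreductase gene, lay lower, at -0.48 ± 0.16 on the log2 scale (edgeR adjusted p = 0.650).

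The B cell factors that oppose the plasma cell programme mostly had the opposite sign. Of 11, 9 had a positive log2 fold change and both Ppm1bCKO libraries lay above both Ppm1bfl/fl libraries for those 9 (20.6% of all tested genes did so). The other 2 lay lower in both Ppm1bCKO libraries (20.6% of all). The 10 B cell markers described below were all positive too, with a median of 1.33. The part of B cell number in the levels of these factors was not tested. The median was 0.63, and 0.35 without Ppm1bCKO replicate 2. In edgeR 0 of 11 passed over all genes, and in limma-voom 0 of 11 did so. An unadjusted edgeR p under 0.05 was found for 6 (6.44% of all tested genes). DESeq2 called Pax5, Bach2, Spib and Ebf1 (1.24% of all). Bach2, a repressor of Prdm1, stood at 30.4 ± 0.8 and 59.1 ± 10.9 CPM (SD, n = 2; log2 fold change 0.96 ± 0.19, edgeR adjusted p = 0.132). Pax5, which sets B cell identity, and Ebf1, which acts with it, had log2 fold changes of 1.09 ± 0.22 and 1.40 ± 0.31 (edgeR adjusted p = 0.152 and 0.205).

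The general machinery of the ER had list medians from -0.02 to 0.18, with more positive than negative signs in 4 of 5 lists. Among 13 sensors and transducers of the unfolded protein response the median log2 fold change was 0.05, with 7 positive, and 3 genes lay higher and 3 lower in both Ppm1bCKO libraries. Of 23 translocation and signal peptide genes 18 were positive, 11 lay higher and 3 lower in both Ppm1bCKO libraries (20.6% of all tested genes in each direction), and the median was 0.18, or 0.36 without Ppm1bCKO replicate 1 and 0.047 without replicate 2. Of 27 folding and redox genes 21 were positive, 3 lay higher and 2 lower, and the median was 0.15, or 0.27 and 0.017 without the same libraries and 0.056 without Ppm1bfl/fl replicate 1. Of 18 ER-associated degradation genes 11 were positive, 6 lay higher and 2 lower, with a median of 0.08, and of 19 ER to Golgi transport genes 9 were positive, 2 lay higher and 4 lower, with a median of -0.02. Over these 5 lists edgeR, DESeq2 and limma-voom called 0 genes. Unadjusted edgeR p-values under 0.05 numbered 1, 0, 0, 2 and 0 in the same order (6.44% of all tested genes had one). The genes closest to passing in the first list were Creb3l2, an ER-bound transcription factor gene (-0.63 ± 0.19, edgeR adjusted p = 0.546), and the stress factor genes Atf4 and Ddit3 (0.38 ± 0.19 and 0.30 ± 0.17, edgeR adjusted p = 0.717 for both). Among degradation genes they were Sel1l, the scaffold of the HRD1 complex (-0.47 ± 0.18), Herpud1 (0.44 ± 0.18) and Ube2g2 (0.27 ± 0.18), with edgeR adjusted p from 0.717 to 0.723.

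In translocation they were Srp14 and Srp19 of the signal recognition particle (0.46 ± 0.23 and 0.38 ± 0.20) and Sec11c of the signal peptidase (0.38 ± 0.19), each at an edgeR adjusted p of 0.717. Among folding genes they were Ero1lb (0.30 ± 0.16), Fkbp2 (0.43 ± 0.24) and Dnajb11 (0.27 ± 0.19), and in ER to Golgi transport Sec24d (-0.31 ± 0.17), Sec31a (-0.27 ± 0.17) and Lman1 (-0.25 ± 0.18), with edgeR adjusted p from 0.717 to 0.725. Hspa5, which encodes BiP, stood at 859 ± 101 and 1051 ± 276 CPM (SD, n = 2), and Hsp90b1, the GRP94 gene, had a log2 fold change of 0.15 ± 0.19.

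**Figure D3:**
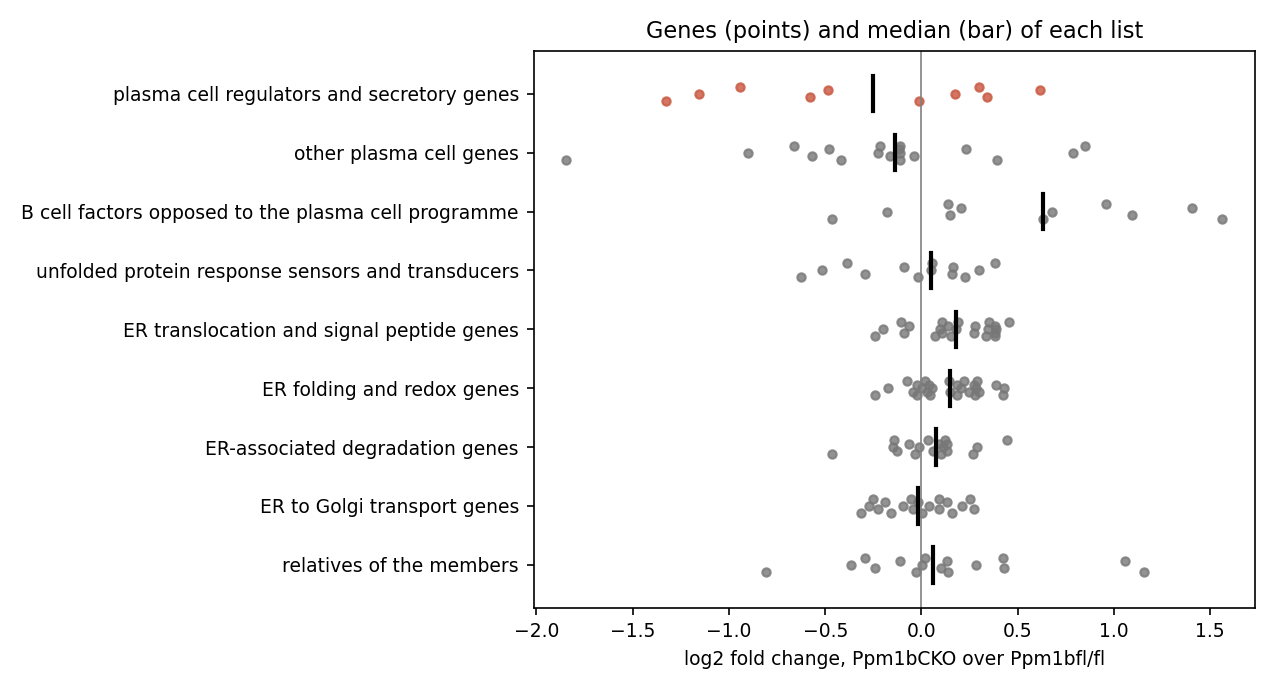
Log2 fold change, Ppm1bCKO over Ppm1bfl/fl (x axis), of the 10 plasma cell regulators and secretory genes (red points) and of the genes of 8 related lists (grey points), with black bars at medians. ER machinery medians lie between -0.02 and 0.18, the members spread from -1.32 to 0.62, and B cell factors centre on 0.63.

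Relatives of the members gave a further comparison within the same libraries. Derl1 and Derl2, the widely expressed derlins, had log2 fold changes of 0.10 ± 0.17 and 0.13 ± 0.18 (edgeR adjusted p = 0.857 and 0.826). Counts of Derl3 per Derl2 count were 0.460 and 0.306 in Ppm1bfl/fl and 0.133 and 0.144 in Ppm1bCKO. As the groups of Derl3 alone did not overlap and Derl2 differed little, this ratio could hardly overlap, and nothing is read from it. Counts of Sdf2l1 per count of its constitutive relative Sdf2 were 1.45 and 1.63 against 1.39 and 1.77, and those of Creld2 per Creld1 count 5.15 and 6.02 against 5.22 and 7.20, both overlapping. Over 16 relatives, some of which are also in the other lists, the median log2 fold change was 0.06. EdgeR and limma-voom called 0, and 4 had an unadjusted edgeR p under 0.05 (6.44% of all tested genes). DESeq2 called 1, Sdc4 (1.24% of all). The syndecans differed in sign, Sdc4 at 1.15 ± 0.35 and Sdc2 at -0.81 ± 0.34 (edgeR adjusted p = 0.555 and 0.717). Tnfrsf13c, which encodes the BAFF receptor of B cells, lay higher, at 1.06 ± 0.28 on the log2 scale (edgeR adjusted p = 0.404).

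Markers of other cells that can express some of these genes also differed in level between libraries. The summed level of 10 B cell markers was 166 and 169 CPM in Ppm1bfl/fl and 247 and 575 CPM in Ppm1bCKO, and all 10 log2 fold changes were positive. That of 9 eosinophil markers was 3013 and 3324 CPM against 4540 and 7963 CPM, with 8 of 9 positive. That of 8 plasmacytoid dendritic cell markers was 311 and 256 CPM against 374 and 389 CPM, with 8 of 8 positive. The groups overlapped for 2 of these, Runx2 and Tcf4, which had the highest group means (log2 fold changes 0.01 and 0.11). The other 6 lay higher in both Ppm1bCKO libraries (20.6% of all tested genes did). Macrophage markers had the opposite sign in 12 of 12 genes, with sums of 746 and 782 CPM against 439 and 559 CPM. That of 10 markers of the labelled progenitor fraction was 626 and 510 CPM against 529 and 469 CPM, which overlap, with 8 of 10 negative. Over all genes edgeR and limma-voom called 0 in each of these lists. In the order given, 9, 6, 4, 5 and 0 genes had an unadjusted edgeR p under 0.05 (6.44% of all tested genes did). DESeq2 called 6, 5, 3, 4 and 0 (1.24% of all). The lists were chosen with earlier results of these data known, so these counts are a description. No marker of these lists was at 0 in any library. The levels of Irf4, Xbp1, Creld2, Fkbp11 and Sdf2l1 were highest where the B cell and eosinophil sums were highest, which was Ppm1bCKO replicate 2 alone. Ppm1bCKO replicate 1 had the next highest sums. There Irf4 was next highest too, but Xbp1 (171 CPM) and Creld2 (40.2 CPM) were at their lowest. Fkbp11 and Sdf2l1 lay between the Ppm1bfl/fl libraries. Prdm1, Sdc1, Tnfrsf17 and Derl3 lay lower in both Ppm1bCKO libraries, as did the macrophage sum. The part of any of these cells in the members' values was not tested.

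**Figure D4:**
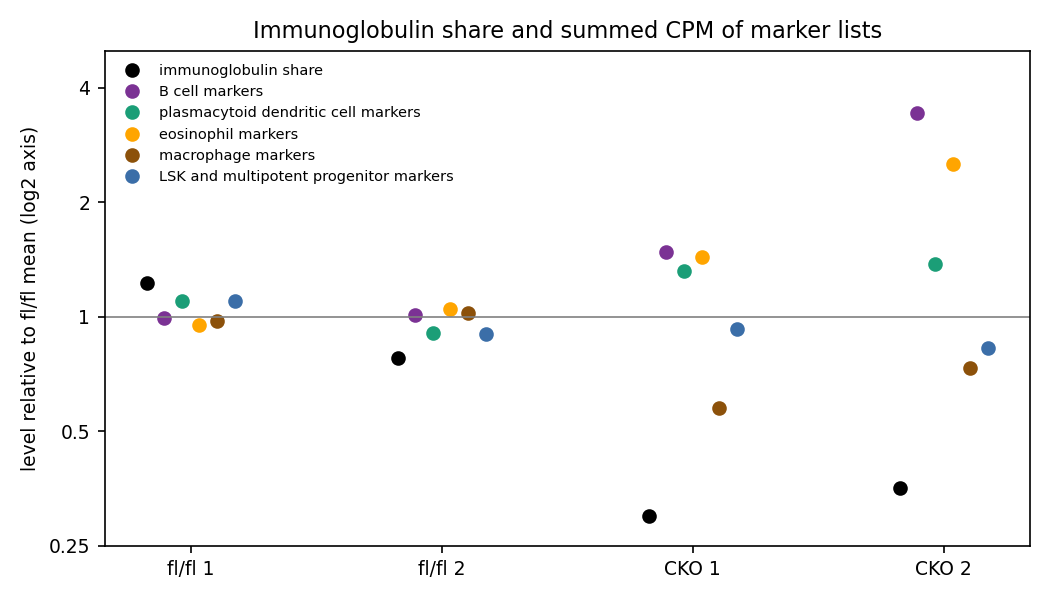
Immunoglobulin share of counts and summed CPM of 5 marker lists in each library (x axis), each relative to its Ppm1bfl/fl mean (y axis, log2 scale). The immunoglobulin share is lower in both Ppm1bCKO libraries, and B cell and eosinophil sums are highest in Ppm1bCKO replicate 2.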

How the data were processed

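Whole-number raw counts per gene were deposited by the authors for 4 libraries. The build was mm10, and featureCounts 2.0.1, HISAT2 2.2.0 and Trim Galore 0.6.7 are listed in the submitters' processing notes. Annotation release, strand setting and handling of multi-mapping reads are not given in the sources used here. Of 55399 identifiers, 55139 matched GENCODE symbols without their version.

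The genotypes were compared with edgeR 4.0.16 (R 4.3.3): TMM factors, filterByExpr (minimum count 10, minimum total 15), a robust quasi-likelihood fit without covariates, and Benjamini-Hochberg adjustment over 16393 genes at a threshold of 0.05. DESeq2 1.42.0, limma-voom (limma 3.58.1) and the other alternatives are given in the closing section. Per kb levels use the exonic length per the file headers. With 2 libraries per group a two-sided exact permutation test cannot go below p = 0.333, so none was used. The limit for a gene with no count covers counting error only, whereas SDs and standard errors hold the spread between libraries. Each standard error is the size of the log2 fold change divided by the square root of the edgeR F statistic. It thus restates that test, and for the members it is a description only.

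Members and lists were chosen with earlier results of these data known. Named genes were the members, up to 3 per list with the smallest p, 14 further genes, and the 6 nearest in profile.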

Additional observations from a re-analysis of the deposited data

How the results depend on the processing

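Over 12 alternatives the sign of the log2 fold change was kept in each for Prdm1 (-1.09 to -0.79), Derl3 (-1.58 to -1.02), Tnfrsf17 (-1.57 to -0.58), Sdc1 (-0.80 to -0.23), Mzb1 (-0.94 to -0.10) and Irf4 (0.36 to 0.84). Apart from Mzb1, these genes had groups that did not overlap. Leaving out a library or refitting the same libraries could hardly change their sign, so nothing is read from its being kept. It changed for Xbp1 without Ppm1bfl/fl replicate 1 (0.06) or Ppm1bCKO replicate 1 (0.14). Creld2, Fkbp11 and Sdf2l1 changed sign without Ppm1bCKO replicate 2, and Creld2 also once the dependence on gene length was taken out of each library (-0.03). The number of genes called, 61, was 199 by DESeq2, 311 with no low-count filter and 0 with immunoglobulin genes left out, and ranged from 94 to 3336 with a library left out. The highest number came without Ppm1bCKO replicate 1, where replicate 2 alone stands for the genotype and is assumed to vary like the others. Of 134 genes in the 8 related lists, 0 were called, against 5 by DESeq2, 8 with no filter and 2 to 47 with a library left out. With the replicate number as a block, 207 genes were called in all and 5 in the lists. Same-numbered libraries deviated together only weakly (correlation 0.063), so the numbers were not taken as pairs. The unfolded protein response median was -0.028 with the length trend removed. With a library left out, the median ranged from -0.49 to -0.03 for the members, from -0.34 to 0.0059 for other plasma cell genes, from 0.35 to 0.86 for opposed B cell factors, from -0.033 to 0.12 for the unfolded protein response, from 0.047 to 0.36 for translocation, from 0.017 to 0.27 for folding and from -0.11 to -0.0029 for ER to Golgi transport.
The causes were not tested. Depth limits Tnfrsf17 most, at 36 counts in each Ppm1bCKO library.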

Other observations

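The 6 genes outside the immunoglobulin family whose profile over the 4 libraries lay nearest to that of Derl3 were Camk2b, Chp2, Gdf15, Abcc3, Ccr10 and Ajm1. This search was chosen after the values were seen. Camk2b, a calcium-dependent kinase gene, measured 12.3 and 9.58 CPM in Ppm1bfl/fl and 3.87 and 4.09 CPM in Ppm1bCKO. Ccr10 stood at 3.42 and 2.32 CPM against 0.660 and 0.927 CPM. Among the 50 nearest genes of any kind, 24 were immunoglobulin genes. The share of such genes among all candidates was not taken. Derl3 was lower in both Ppm1bCKO libraries, as was the immunoglobulin share of counts, so nothing is read from this number. Nearest to the mean profile of all 10 members, by Euclidean distance of centred log2(CPM + 0.1), were Pcnx4, Wdfy1, Itga9, 1810034E14Rik, Hoxb4 and Tulp3, with 1 immunoglobulin gene among the 50 nearest. Likeness over 4 libraries of 2 groups is a description, and many of 14022 genes lie close by.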
